A study of Homo sapiens with 6 samples.

Results

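Small RNA host genes are transcription units that are read, spliced and then largely discarded, while short functional RNAs are cut out of their introns or exons. The genes described here are those whose symbol is SNHG or MIR…HG by pattern, the small nucleolar RNA (snoRNA) host genes and the microRNA host genes, together with GAS5. The rule used the symbols alone and no measured value. It found 55 members among the 26485 symbols measured, 22 of them SNHG genes and GAS5 and 33 of them MIRHG genes. Of these, 33 had enough reads to be tested (20 SNHG genes and GAS5, 13 MIRHG genes), and 22 did not.

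The libraries came from AF22, a long-used human line of neuroepithelial-like neural stem cells that was made from reprogrammed cells. The 3 control libraries are titled shControl and carry the genotype label WT. The labels of the other 3 libraries name COMMD3 and COMMD3-BMI1 as knocked down, COMMD3 being a subunit of an endosomal sorting complex and COMMD3-BMI1 a readthrough of that gene into its neighbour BMI1. The labels describe neither the reagent, nor whether a line is 1 clone, nor whether the replicates are separate cultures, so the p-values cover only library-to-library spread, and that spread may be technical.

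Total counts ran from 7294687 to 11579849 per library. The member genes together held between 0.0963% and 0.0996% of the counts of a control library and between 0.097% and 0.104% of a knockdown library. COMMD3, the labelled target, had 31.7, 29.7 and 27.6 CPM (read counts scaled to the library size after trimmed-mean normalisation) in control and 12.9, 11.3 and 10.5 in knockdown. It fell by 1.37 on the log2 scale (SE 0.0996, edgeR adjusted p = 2.34e-12). BMI1 had 110.2 ± 2.41 CPM in control and 104.8 ± 1.80 in knockdown (SD, n = 3), and COMMD3-BMI1 was listed at 0 in all 6 libraries. Summed neural stem cell markers were at 2600 to 2770 CPM in control and 2580 to 2690 in knockdown, with all 10 of 10 tested. Of these 10, NOTCH1, PROM1, HES1 and SOX2 fell and MSI1 rose.

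Box C/D snoRNAs guide the methylation of ribosomal RNA and box H/ACA snoRNAs guide its pseudouridylation, and in human cells most are trimmed out of the introns of host genes. The spliced exons of many SNHG genes, GAS5 among them, are degraded by nonsense-mediated decay, so the level of the spliced host and the level of its snoRNAs are set at different steps. MicroRNA hosts are cleaved by DROSHA in the nucleus, and the hairpins released are exported and cut by DICER1 into mature microRNAs, which find their targets mainly through bases 2 to 8, the seed. In neural stem cells, the let-7 and miR-125 families are known for promoting maturation and the miR-17 cluster for promoting proliferation.

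The mature microRNAs encoded in the hosts that the results turn on are printed to show which target families each host carries. They are RefSeq sequences with GRCh38.p14 coordinates, written 5′ to 3′ with the seed in capitals. No microRNA was measured in these libraries. MIR99AHG, whose exons and introns span chr21:15928296-16645065 on the plus strand in GENCODE v29 (GRCh38), carries a cluster that is paralogous to the one in MIR100HG, at chr11:122028327-122556721 on the minus strand.
MIR99AHG, hsa-miR-99a-5p (chr21:16539101-16539122): aACCCGUAgauccgaucuugug
MIR100HG, hsa-miR-100-5p (chr11:122152275-122152296): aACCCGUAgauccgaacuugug
MIR99AHG, hsa-let-7c-5p (chr21:16539838-16539859): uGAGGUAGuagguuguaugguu
MIR100HG, hsa-let-7a-5p (chr11:122146568-122146589): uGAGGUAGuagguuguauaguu
MIR99AHG and MIR100HG, hsa-miR-125b-5p (chr21:16590253-16590274 and chr11:122099809-122099830): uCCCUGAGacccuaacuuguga
Counted from the 5′ end, the miR-100 and miR-99a arms differ at 1 of 22 bases (A16U, the MIR100HG base first) and the let-7a and let-7c arms also at 1 of 22 (A19G). Both differences lie outside the seed, and miR-125b-5p has 0 differences between the hosts.

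MIR17HG, at chr13:91347820-91354579 on the plus strand, holds 6 hairpins whose main arms fall into 4 seed groups. Its sequences are given because a single host transcript carries all of these groups.
hsa-miR-17-5p (chr13:91350618-91350640): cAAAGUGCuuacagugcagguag
hsa-miR-20a-5p (chr13:91351072-91351094): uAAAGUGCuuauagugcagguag
hsa-miR-18a-5p (chr13:91350756-91350778): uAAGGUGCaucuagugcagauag
hsa-miR-19a-3p (chr13:91350939-91350961): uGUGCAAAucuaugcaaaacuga
hsa-miR-19b-3p (chr13:91351245-91351267): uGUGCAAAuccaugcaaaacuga
hsa-miR-92a-3p (chr13:91351361-91351382): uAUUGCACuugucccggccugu
MIR600HG, at chr9:123109494-123115477 on the minus strand, holds 1 hairpin, miR-600.
hsa-miR-600 (chr9:123111561-123111583): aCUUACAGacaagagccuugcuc
Its seed is shared with none of the arms printed above.

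Few of the tested host genes changed. By edgeR's quasi-likelihood test, 5 of 33 passed an adjusted p of 0.05 (15.2%), 1 higher and 4 lower in knockdown, where 33.3% of all 13632 tested genes passed (15.3% higher and 18.1% lower). MIR99AHG, MIR600HG, MIR17HG and SNHG3 fell, and SNHG16 rose. The changes were between 0.14 and 0.49 in size on the log2 scale. At an unadjusted p under 0.05 there were 10 of 33 (30.3%), against 42.9% of all tested genes. The median log2 fold change over the 33 was 0.03 and the median of its size 0.12, beside 0.00 and 0.14 for all tested genes. Libraries of the 2 groups did not overlap for 7 of 33 (21.2%), against 44.3% of all genes.

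The precision differed with the level of the host. Among tested members with a mean of 10 CPM or more, 5 of 19 passed (26.3%, SE of the log2 fold change 0.044 to 0.122), where 37.5% of all such genes did. Under 10 CPM, 0 of 14 passed (SE 0.135 to 0.385), where 18.2% of all such genes did. At an unadjusted p under 0.05 there were 0 of 14, against 42.9% of all tested genes at any level. DESeq2 called 0 of those it tested, where it called 2743 of 13400 genes. MIR4697HG and MIR210HG were not among the 31 members it tested. Of the 28 members that did not pass, the 95% interval of the fold change lay inside 1.2-fold in either direction for 9, inside 1.5-fold for 21 and inside 2-fold for 25. The 3 with wider intervals were MIR4697HG, MIR210HG and SNHG25.

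**Figure D1:**
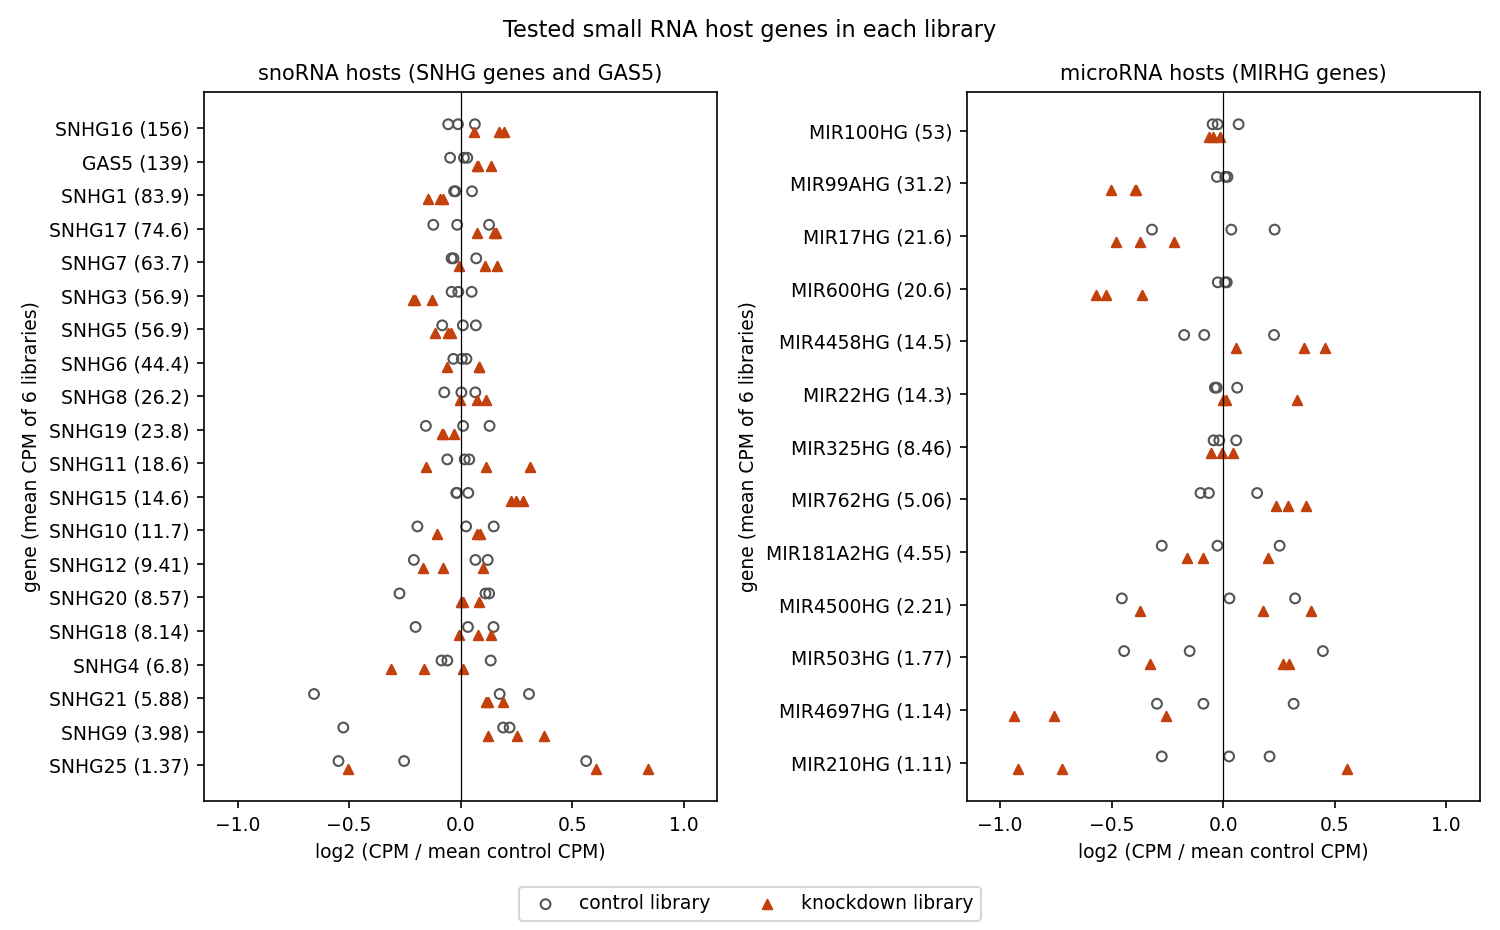
Level of each tested host gene in each library as log2 of its CPM over the mean control CPM (horizontal axis), with snoRNA hosts on the left and microRNA hosts on the right, ordered by mean CPM, which stands in brackets. Circles are the 3 control and triangles the 3 knockdown libraries. The knockdown libraries of MIR99AHG and MIR600HG lie left of all their control libraries, and the spread within a group widens toward the low genes at the bottom.

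MIR99AHG, the noncoding host of miR-99a, let-7c and miR-125b-2, fell in knockdown. Its control libraries had 36.1, 36.3 and 35.2 CPM and its knockdown libraries 27.3, 27.2 and 25.3. The groups did not overlap, and the lowest control library stood well above the highest knockdown library. MIR99AHG fell by 0.43 on the log2 scale (SE 0.0737, edgeR adjusted p = 2.95e-05), to 0.741 times the control level.

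MIR100HG, the host of the paralogous cluster, did not pass the test. It had 56.4, 52.0 and 52.8 CPM in control and 51.4, 53.2 and 52.1 in knockdown. The groups overlapped, and the log2 fold change was -0.05 (95% interval -0.17 to 0.07, edgeR adjusted p = 0.56). The log2 ratio of MIR99AHG to MIR100HG within a library was -0.58 ± 0.063 in control and -0.97 ± 0.065 in knockdown (SD, n = 3), a difference of -0.39. All 3 knockdown ratios lay under all 3 control ratios. By a two-sided exact permutation test p was 0.1 (0.175 after adjustment over 7 ratios), and 0.1 is the smallest that 3 libraries against 3 allow. This pair was looked at with the separation of MIR99AHG already known, so the ratio restates it and adds no independent support.

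MIR600HG, the host of miR-600, also fell. Its levels were 23.6, 24.1 and 24.2 CPM in control and 16.7, 18.6 and 16.2 in knockdown, again with no overlap. The control libraries were closely grouped and the knockdown libraries were all lower. MIR600HG fell by 0.49 on the log2 scale (SE 0.092, edgeR adjusted p = 0.000125), to 0.714 times the control level. It shares 4.2% of its exon bases with STRBP, which encodes an RNA-binding protein, on the same strand. STRBP had 71.3 ± 1.73 CPM in control and 73.2 ± 2.64 in knockdown (SD, n = 3, edgeR adjusted p = 0.648).

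MIR17HG, the host of the miR-17 to miR-92a cluster and a well-known target of MYC, had 24.9, 19.4 and 28.4 CPM in control and 17.4, 20.8 and 18.7 in knockdown. Control replicate 2 lay inside the range of the knockdown libraries, so the groups overlapped. MIR17HG fell by 0.35 on the log2 scale (SE 0.108, edgeR adjusted p = 0.013). The call rests on single libraries: it did not pass without control replicate 1 (adjusted p = 0.054), without control replicate 3 (0.101) or without knockdown replicate 1 (0.0638), nor by DESeq2 (0.0672).

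**Figure D2:**
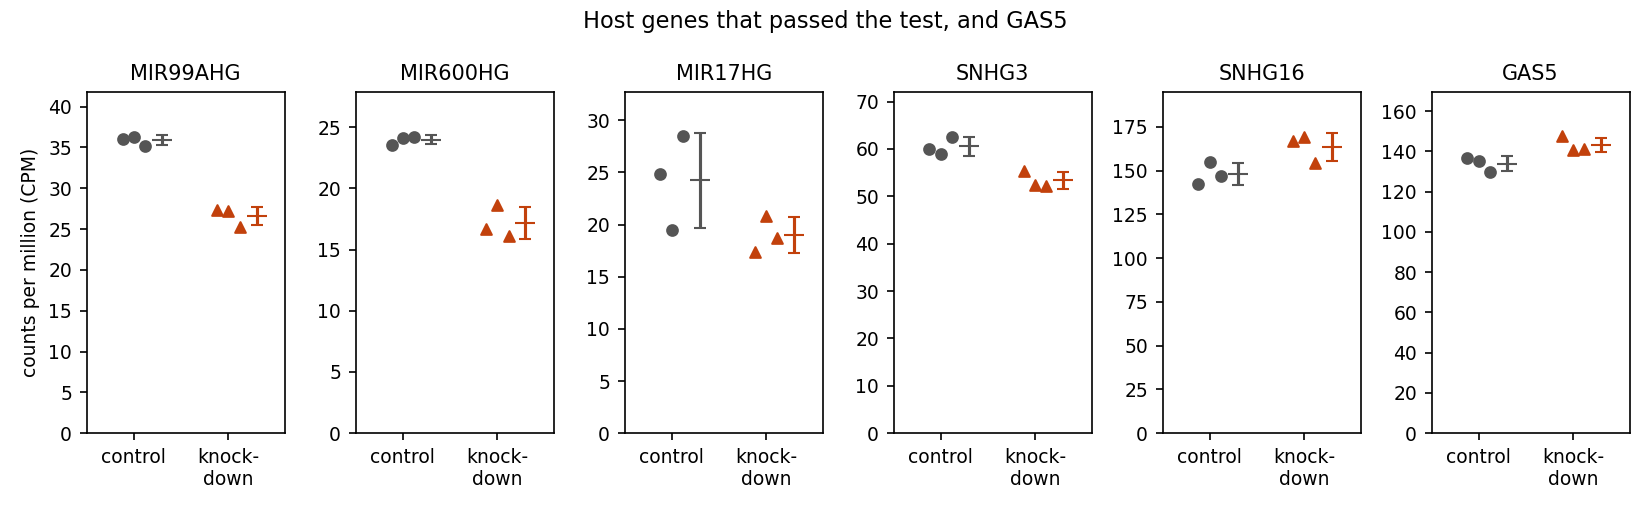
CPM of the 5 host genes that passed the test and of GAS5 in each library (vertical axes start at 0 and differ between panels). Circles are control and triangles knockdown libraries, and the bar beside them is the mean with its SD over 3 libraries. MIR99AHG and MIR600HG show 2 separate groups, while control replicate 2 of MIR17HG, at 19.4 CPM, lies among the knockdown libraries.

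The other tested microRNA hosts did not pass the test. MIR4458HG had 13.0 ± 1.96 CPM in control and 16.0 ± 2.23 in knockdown (adjusted p = 0.0748, edgeR). MIR22HG, whose transcript is known to respond to cell stress, had 13.7 ± 0.533 and 15.0 ± 2.02 CPM. Knockdown replicate 3 was high, at 17.3 CPM, and the other 2 knockdown libraries lay inside the control range. MIR325HG had 8.48 ± 0.313 and 8.44 ± 0.281 CPM, with a 95% interval of its log2 fold change from -0.28 to 0.27. MIR762HG had 4.54 ± 0.441 and 5.59 ± 0.257 CPM, and every knockdown library lay above every control library (adjusted p = 0.156, edgeR). It shares exon bases with BCL7C on the opposite strand, so without a stated strand setting its reads cannot be told apart from those of that gene.

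The lowest tested microRNA hosts gave wide intervals. MIR181A2HG had 4.56 ± 0.837 CPM in control and 4.54 ± 0.623 in knockdown. MIR4500HG, with 19.9% of its exon bases shared with another gene on the same strand, had 2.13 ± 0.555 and 2.28 ± 0.584 CPM. MIR503HG, in the X-linked region of miR-424 and miR-503, had 1.71 ± 0.557 and 1.84 ± 0.413 CPM. These 3 overlapped between the groups. MIR4697HG had 1.38 ± 0.305 and 0.896 ± 0.227 CPM (log2 fold change -0.62, 95% interval -1.34 to 0.11), and MIR210HG, the host of the hypoxia-induced miR-210, had 1.19 ± 0.196 and 1.03 ± 0.620 CPM. MIR210HG rests on 61 counts over the 6 libraries, the fewest of any tested member.

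Among the snoRNA hosts, 2 of 20 passed (10%), SNHG3 lower and SNHG16 higher, against 33.3% of all tested genes. At an unadjusted p under 0.05 there were 6 of 20, against 42.9% of all tested genes. The median log2 fold change of the 20 was 0.07. The 3′ ends of the snoRNAs in both hosts are printed to show the 2 snoRNA classes involved. They are the last 30 bases of the GENCODE v29 transcripts, with the ACA triplet of the H/ACA class and the CTGA of the C/D class in capitals. The coordinates are those of each whole snoRNA gene, not of the printed bases.
SNHG3, SNORA73A (chr1:28507366-28507571): ctggggagacaaaccatgcaggaaACAgcc
SNHG3, SNORA73B (chr1:28508559-28508762): ctggggagacaaaccatgcaggaaACAtat
SNHG16, SNORD1A (chr17:76561634-76561705): ctgagggaaataatctattCTGAggcttaa
SNHG16, SNORD1B (chr17:76561109-76561192): ctgtgtggaatttgaatatCTGAaactcag
SNHG16, SNORD1C (chr17:76558791-76558868): tgtgaggaggtctgacttgCTGAggctcag
The motif in capitals is the last one found in each sequence. Read on the transcript strand only, ACA stood exactly 3 bases from the end in 29.4% of 955 GENCODE snoRNA transcripts, and CTGA exactly 7 bases from the end in 7.54%. Anywhere in the last 30 bases, ACA stood in 57.2% and CTGA in 51.3%. The 955 transcripts were not split by class, so a motif in this stretch does not by itself tell the class. The SNORA73 pair, also called U17, acts in the processing of the ribosomal RNA precursor, and the SNORD1 group is of the box C/D class.

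SNHG3, at chr1:28505980-28510892 on the plus strand, had 60.1, 58.9 and 62.6 CPM in control and 55.4, 52.5 and 52.2 in knockdown. The groups did not overlap. SNHG3 fell by 0.18 on the log2 scale (SE 0.056, edgeR adjusted p = 0.0141). It did not pass without control replicate 3 (adjusted p = 0.058), without knockdown replicate 2 (0.0556) or by DESeq2 (0.108). SNHG3 lies inside the span of RCC1, the nucleotide exchange factor of Ran, on the same strand and shares 5.9% of its exon bases with it. RCC1 fell too, by 0.11 on the log2 scale, from 133.9 ± 1.88 to 123.6 ± 1.44 CPM (SD, n = 3, edgeR adjusted p = 0.0416), and the part of shared reads in the SNHG3 value was not tested. The RCC1 call was lost when any single library was left out (adjusted p = 0.0535 to 0.113) and by DESeq2 (0.16).

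SNHG16, at chr17:76557766-76565348 on the plus strand, was the 1 member that rose in the edgeR test as reported. It had 142.4, 154.7 and 146.8 CPM in control and 166.7, 169.5 and 154.3 in knockdown, and knockdown replicate 3 lay just under control replicate 2. It rose by 0.14 on the log2 scale (SE 0.0467, edgeR adjusted p = 0.017). It did not pass without control replicate 1 (adjusted p = 0.103), knockdown replicate 1 (0.0577) or knockdown replicate 2 (0.109), nor by DESeq2 (0.06). An unnamed transcript on the opposite strand covers 30.6% of its exon bases.

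GAS5, named for its build-up in growth-arrested cells and a host of box C/D snoRNAs, had 136.8, 135.4 and 129.7 CPM in control and 147.4, 140.8 and 141.3 in knockdown. Every knockdown library lay above every control library, by a difference of 0.09 on the log2 scale (SE 0.0441, 95% interval 0.0032 to 0.1832). GAS5 did not pass after adjustment (edgeR adjusted p = 0.103), and passed only with scaling to the library totals among the alternatives run (0.0426).

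SNHG1, a host of box C/D snoRNAs, had 85.2, 85.6 and 90.1 CPM in control and 82.4, 81.5 and 78.6 in knockdown. The groups did not overlap, and the log2 fold change was -0.10 (SE 0.0482, edgeR adjusted p = 0.102). SNHG17 had 65.4, 77.8 and 70.5 CPM in control and 79.6, 79.1 and 74.9 in knockdown, a difference of 0.13 on the log2 scale (SE 0.0566, edgeR adjusted p = 0.0661). Its control libraries were the more spread, and control replicate 2 lay within the knockdown range.

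SNHG7 had 64.8, 60.3 and 60.0 CPM in control and 69.1, 66.6 and 61.3 in knockdown (log2 fold change 0.08, SE 0.0568, edgeR adjusted p = 0.276). SNHG5 had 58.7, 61.1 and 55.1 CPM in control and 56.7, 56.0 and 53.8 in knockdown (-0.08, SE 0.0569, edgeR adjusted p = 0.32). Both overlapped between the groups, and for both the 95% interval stayed inside 1.2-fold. An opposite-strand gene covers 25.2% of the exon bases of SNHG7.

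SNHG15, known for a short-lived transcript, had 13.3 ± 0.280 CPM in control and 15.9 ± 0.289 in knockdown (SD, n = 3). Its 3 knockdown libraries lay above its 3 control libraries, and the log2 fold change of 0.25 did not pass (SE 0.105, edgeR adjusted p = 0.0669). SNHG6 had 43.8 ± 0.903 CPM in control and 44.9 ± 2.57 in knockdown. SNHG8 had 25.7 ± 1.24 and 26.8 ± 1.08 CPM. Neither SNHG6 nor SNHG8 separated the groups. An opposite-strand gene covers 29.3% of the exon bases of SNHG6.

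SNHG19 had 24.3 ± 2.40 CPM in control and 23.3 ± 0.506 in knockdown. SNHG11 had 18.0 ± 0.643 and 19.3 ± 3.08 CPM, the knockdown libraries spreading from 16.2 to 22.3. SNHG10, with 20.1% of its exon bases covered by an opposite-strand gene, had 11.6 ± 1.37 and 11.8 ± 0.853 CPM. All 3 overlapped between the groups, and their edgeR adjusted p-values were 0.683, 0.51 and 0.871. SNHG12 had 9.56 ± 1.14 CPM in control and 9.27 ± 0.903 in knockdown. SNHG20 had 8.47 ± 1.27 and 8.66 ± 0.263 CPM. SNHG18 had 7.94 ± 0.959 and 8.35 ± 0.415 CPM. These too overlapped.

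SNHG4, which lies within the span of MATR3 on the same strand, had 7.16 ± 0.611 CPM in control and 6.45 ± 0.730 in knockdown. SNHG21 had 5.59 ± 1.79 and 6.17 ± 0.182 CPM, and SNHG9 had 3.63 ± 0.962 and 4.33 ± 0.378. In both, 1 control library was low, control replicate 2 of SNHG21 at 3.54 CPM and control replicate 3 of SNHG9 at 2.52 CPM. SNHG25 had 1.17 ± 0.491 and 1.57 ± 0.663 CPM on 77 counts in all. Another gene on the same strand shares 72.9% of the exon bases of SNHG21, so its reads could be split between them.

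**Figure D3:**
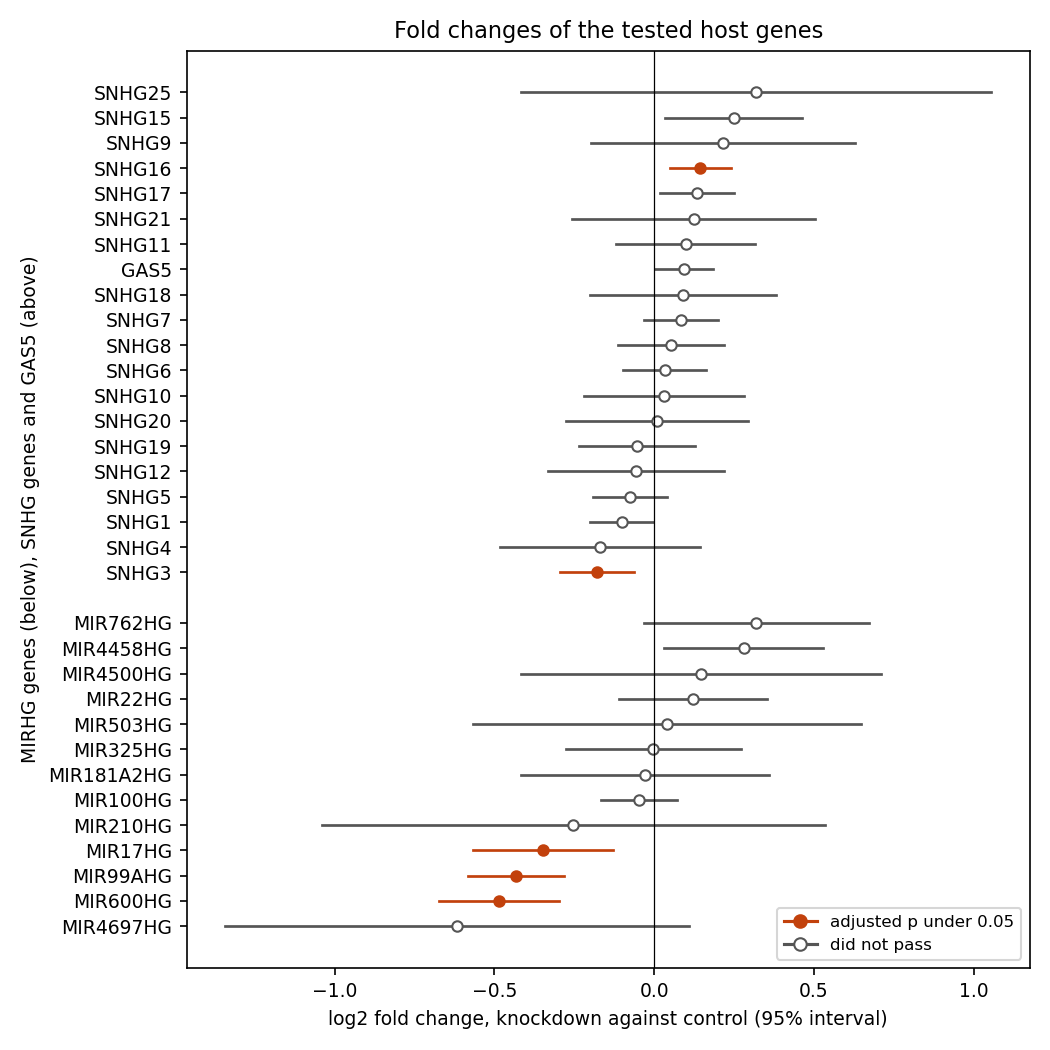
Log2 fold change of knockdown against control for the 33 tested host genes (points) with 95% intervals (lines), MIRHG genes below and SNHG genes and GAS5 above. Filled points passed an adjusted p of 0.05 and open points did not. MIR99AHG and MIR600HG lie farthest from 0 among the filled points, and MIR100HG, with an interval from -0.17 to 0.07, lies next to 0.

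The 22 members that were not tested were 20 MIRHG genes, SNHG22 and SNHG24. Of them, 8 were listed at 0 in all 6 libraries: MIR155HG, the host of the leukocyte microRNA miR-155, MIR202HG, MIR205HG, MIR3663HG, MIR381HG, MIR3976HG, MIR646HG and MIRLET7BHG. At 3 counts, a 0 allows up to between 0.259 and 0.42 CPM in a library, for counting error only. The other 14 had between 1 and 55 counts over all 6 libraries. MIR217HG had 55, MIR497HG 19, SNHG22 17 and MIR31HG 10. MIR137HG, whose microRNA is known from neuronal maturation, had 8, MIR181A1HG 7, MIR133A1HG and MIR663AHG 6 each, and SNHG24 3. MIR143HG, MIR2052HG, MIR670HG, MIR7515HG and MIRLET7DHG had 1 count each.

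Several hosts start head to head with a protein-coding gene. For 6 tested members, a tested gene on the opposite strand starts within 1 kb. Of these 6 neighbours 3 passed, 2 higher and 1 lower, where 33.3% of all tested genes passed. TRAF7, a ubiquitin ligase whose start lies 340 bases from that of SNHG19, had 149.2, 166.7 and 162.1 CPM in control and 88.2, 90.3 and 93.4 in knockdown. TRAF7 fell by 0.81 on the log2 scale (SE 0.0485, edgeR adjusted p = 1.82e-14), while SNHG19 had a log2 fold change of -0.05 (95% interval -0.24 to 0.13).

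SLC3A2, the heavy chain of amino acid transporters, starts 188 bases from SNHG1. It had 174.6, 174.5 and 186.4 CPM in control and 197.8, 204.1 and 211.4 in knockdown. SLC3A2 rose by 0.20 on the log2 scale (SE 0.0444, edgeR adjusted p = 0.000812), where the log2 fold change of SNHG1 was -0.10. ZBTB37, a zinc finger gene whose start lies 800 bases inside GAS5, had 4.32, 4.23 and 3.50 CPM in control and 5.97, 7.10 and 5.97 in knockdown. ZBTB37 rose by 0.63 (SE 0.174, edgeR adjusted p = 0.00547), but not past the threshold by DESeq2 (0.0566). The neighbours RPS2 of SNHG9, SEMA5A of SNHG18 and WDR81 of MIR22HG did not pass, with edgeR adjusted p-values of 0.402, 0.216 and 0.213.

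The host-to-neighbour ratio inside each library was taken for all 6 pairs. The log2 ratio of SNHG19 to TRAF7 was -2.71 ± 0.063 in control and -1.96 ± 0.057 in knockdown (SD, n = 3), a difference of 0.75. The ratio of SNHG1 to SLC3A2 went from -1.04 ± 0.011 to -1.34 ± 0.083, and that of GAS5 to ZBTB37 from 5.07 ± 0.126 to 4.50 ± 0.168. In these 3 pairs the ratios did not overlap between the groups (p = 0.1 each by the two-sided exact permutation test, the smallest possible here, adjusted p = 0.175 over 7 ratios). Their neighbours had already separated the groups in the gene test, so this restates those differences. The other 3 ratios overlapped. SNHG9 to RPS2 was -7.30 ± 0.481 in control and -7.06 ± 0.167 in knockdown, SNHG18 to SEMA5A -3.15 ± 0.273 and -2.99 ± 0.089, and MIR22HG to WDR81 -1.10 ± 0.151 and -1.11 ± 0.087 (exact permutation p = 0.5, 0.5 and 0.9).

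**Figure D4:**
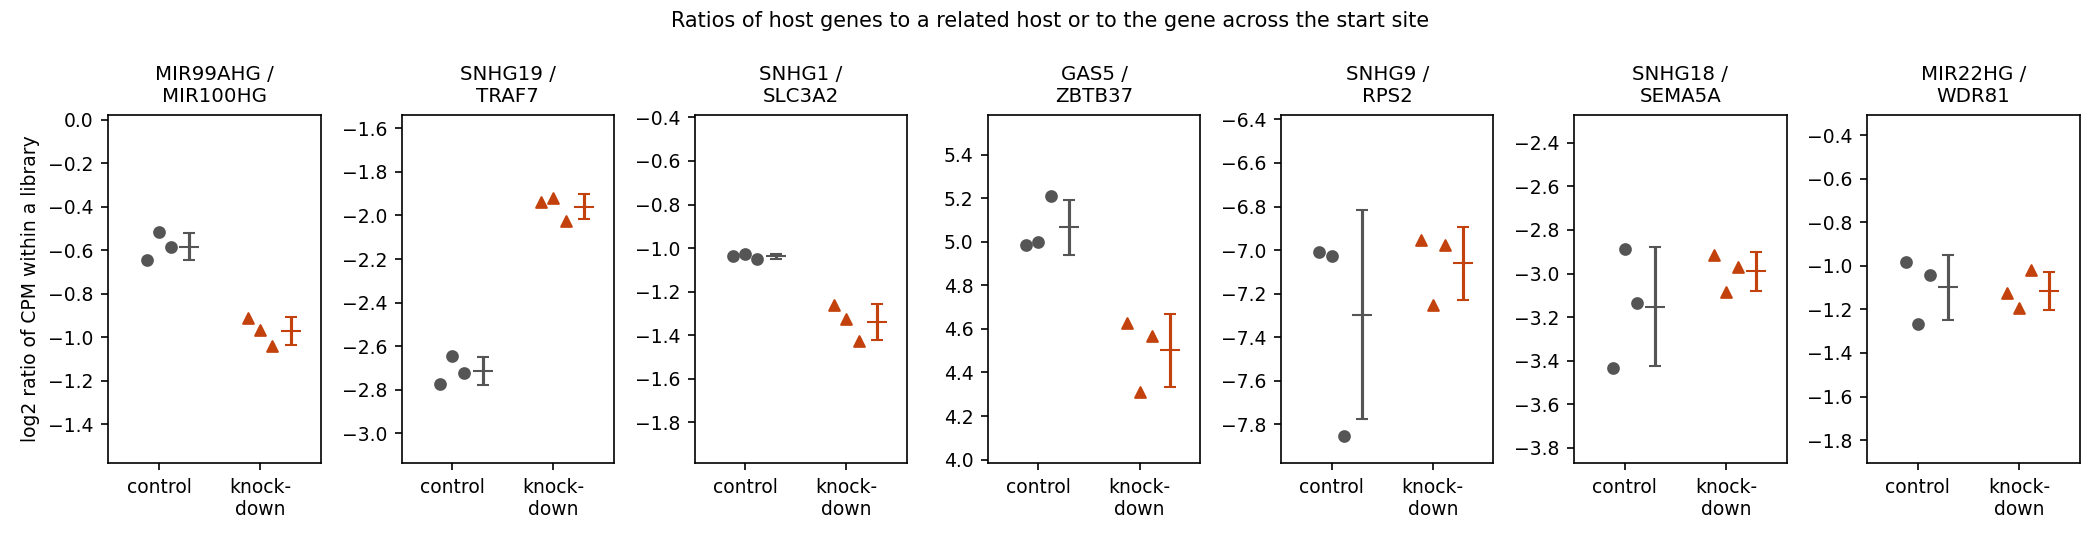
Log2 ratio of CPM within each library for 7 gene pairs (vertical axes of equal length, each centred on its pair). Circles are control, triangles knockdown, and bars the mean with SD over 3 libraries. The SNHG19 to TRAF7 ratio lies near -2.71 in control and -1.96 in knockdown, and the 3 pairs on the right overlap between groups.

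The small RNAs inside the hosts were barely sampled. The libraries held 100 rows for snoRNA or microRNA genes that lie inside 49 members, of which 43 were at 0 in all libraries and 79 had under 30 counts in total. Together they had 2124 counts. The 11 rows that could be tested gave 0 called by edgeR, 0 at an unadjusted p under 0.05 and 0 by DESeq2. By edgeR, 33.3% of all tested genes passed, and 18.2% of those under 10 CPM, the level of these rows. DESeq2 called 2743 of 13400 genes at all levels. At an unadjusted p under 0.05 there were 42.9% of all tested genes. The log2 fold change was negative for 8 of the 11, with a median of -0.26, where 6758 of 13632 tested genes were negative. The SE of the log2 fold change of these rows was 0.20 to 0.31, so small changes could be missed. SNORD80, inside GAS5, had 49, 36 and 20 counts in control and 37, 32 and 36 in knockdown, the highest total of 210. SNORA73A, inside SNHG3, had 23, 23 and 14 counts in control and 20, 10 and 18 in knockdown. SNORD104 had 168 counts in all, more than the 77 of its host SNHG25. These rows can hold reads of precursors as well as of mature snoRNAs, so they do not measure the snoRNAs that the hosts yield.

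The machinery that acts on these RNAs was counted from lists of named factors. By edgeR, 33.3% of all tested genes passed and 42.9% had an unadjusted p under 0.05. DESeq2 called 2743 of 13400 genes, and edgeR with 1 library left out called 3608 to 4297 of 13714 to 13839. The counts below stand beside these values. Of 8 core proteins of the snoRNA particles, 0 passed by edgeR (0 at an unadjusted p under 0.05, 0 by DESeq2, 1 without knockdown replicate 3), and their median log2 fold change was 0.02. NOP56, a box C/D core protein, had 139.4 ± 3.64 CPM in control and 137.3 ± 6.04 in knockdown (SD, n = 3). Of 9 assembly factors, 0 passed (3 at an unadjusted p under 0.05, 0 by DESeq2). RUVBL2, an assembly ATPase, had 82.8 ± 3.18 and 88.9 ± 1.93 CPM (edgeR adjusted p = 0.0792). Of 15 nonsense-mediated decay factors, 1 passed. CASC3, a part of the exon junction complex, fell by 0.12 on the log2 scale (SE 0.0469, edgeR adjusted p = 0.0415), and 0 of 15 passed by DESeq2 or without control replicate 2, control replicate 3, knockdown replicate 1 or knockdown replicate 3. For CASC3 the adjusted p without each of these lay between 0.0847 and 0.28.

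Of the 4 microRNA processing enzymes 3 passed, all lower, where 33.3% of all tested genes passed and 18.1% were lower. The median log2 fold change of the 4 was -0.17. DICER1, which makes the final cut, had 354.7, 359.1 and 368.8 CPM in control and 286.4, 298.8 and 302.9 in knockdown. It fell by 0.28 on the log2 scale (SE 0.043, edgeR adjusted p = 4.9e-06), with no overlap. XPO5, the export factor of hairpins, had 215.7 ± 13.8 CPM in control and 187.6 ± 5.96 in knockdown and fell by 0.20 (SE 0.0469, edgeR adjusted p = 0.00153). DGCR8, the partner of DROSHA, fell by 0.14 from 86.0 ± 6.55 to 78.2 ± 1.39 CPM (edgeR adjusted p = 0.0455), and DROSHA did not pass. The DGCR8 call was lost in 9 alternatives, by DESeq2 (adjusted p = 0.199) and without any single library but control replicate 2 (0.0612 to 0.195) among them.

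Hosts outside the naming rule gave the setting for these counts. Of 27 tested protein-coding snoRNA hosts, 4 rose and 2 fell (22.2% passed, against 33.3% of all tested genes). TNPO2, a nuclear import receptor, fell by 0.29 (adjusted p = 3.07e-06, edgeR). PTCD3, a protein of the mitochondrial ribosome, rose by 0.21 from 156.1 ± 4.56 to 180.2 ± 3.53 CPM, and EIF4A2, a translation helicase, rose by 0.21 from 278.6 ± 8.73 to 323.1 ± 10.1 CPM. PPAN, a ribosome assembly factor, rose by 0.66 (edgeR adjusted p = 0.0171), a call lost without control replicate 2 (0.0885) or knockdown replicate 2 (0.0738) and by DESeq2 (0.123). Scaling to the library totals gave 11 called and leaving out control replicate 2 or knockdown replicate 2 gave 3. In these settings 4693 of 13632, 3877 of 13830 and 3652 of 13839 genes passed.

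Of 9 tested noncoding hosts outside the rule, 2 rose and 2 fell by edgeR (44.4%, against 33.3% of all tested genes). DESeq2 gave 0 of them, where it called 2743 of 13400 genes. MIR4435-2HG, which misses the rule by its hyphen, rose by 0.32 from 19.5 ± 1.74 to 24.0 ± 0.223 CPM (adjusted p = 0.00772, edgeR). DANCR fell by 0.17 from 79.7 ± 2.07 to 70.6 ± 2.43 CPM. ZFAS1 rose by 0.15 from 77.3 ± 2.95 to 85.9 ± 3.96 CPM. LINC00461, the host of a miR-9 hairpin known from the developing brain, fell by 0.28 from 22.1 ± 1.87 to 18.3 ± 1.87 CPM (adjusted p = 0.0306, edgeR). Leaving out control replicate 1 or control replicate 3 gave 2 of these 9, where 3875 of 13714 and 3956 of 13809 genes passed. MIR4435-2HG did not pass without control replicate 1 (0.0849), ZFAS1 without control replicate 2, control replicate 3 or knockdown replicate 1 (0.074 to 0.131), nor LINC00461 without control replicate 1, control replicate 3 or knockdown replicate 1 (0.0828 to 0.205).

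Markers of other cell types moved with the groups and stand beside the counts above. Summed endothelial markers were 137 to 145 CPM in control and 92.6 to 105 in knockdown, with 3 of 4 tested lower. Summed oligodendrocyte markers were 169 to 176 and 144 to 150 CPM (2 of 3 lower), pluripotency markers 531 to 536 and 635 to 693 CPM (LIN28A higher, POU5F1 lower), and astrocyte markers 316 to 343 and 297 to 311 CPM. Of the 3 astrocyte markers tested, S100B fell from 69.7 ± 1.49 to 45.5 ± 3.77 CPM (edgeR adjusted p = 1.53e-09), while SLC1A3, which makes up most of the sum, had 252.9 ± 12.8 and 251.4 ± 4.26 CPM, and neither it nor AQP4 passed. Neuron markers overlapped, at 25.6 to 32.2 and 26.7 to 29.1 CPM, and the leukocyte markers stayed under 1 CPM in sum. GFAP and TDGF1 were at 0. The part of such cells or states in the changes of the host genes was not tested, and in bulk RNA fewer cells of a type and less RNA per cell cannot be told apart.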

How the data were processed

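RNA-seq libraries were made from 6 samples of AF22, 3 control and 3 knockdown, grouped by their titles. Per the labels' protocols, total RNA was DNase-treated and made into libraries with a directional kit. Trim Galore 0.6.6, STAR 2.7.10a, bedtools and the build hg38 are named in the submitters' processing notes. How reads were counted, on which strand and with which annotation, is not given in the sources used here. Deposited by the authors were whole-number read counts per symbol, not normalised.

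Here filterByExpr of edgeR 4.0.16 (R 4.3.3) kept 13632 genes with 99.858% to 99.869% of the counts. TMM factors were 0.9797 to 1.015, and groups were compared with glmQLFTest (quasi-likelihood) without covariates, with Benjamini-Hochberg adjustment over all tested genes and a threshold of 0.05. The SE is the log2 fold change divided by the root of F. Coordinates came from GENCODE v29 (23924 of 26485 symbols matched), and 10 nested snoRNA rows were placed by a RefSeq table without strand. Lists are described by counts and medians, with no set test. Exact permutation tests were run on ratios.

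The members, lists and alternatives were chosen with earlier results of these data known. The naming rule took every tested member, per-library values for those called and for the 6 uncalled of highest mean CPM, up to 4 called genes of each list by p (otherwise the best expressed), and the targeted genes. Members set apart for not overlapping, and marker genes named, were chosen after their values were seen. Chi-square per degree of freedom between replicates was 1.23 to 1.994, so no library was a copy of another. This cannot exclude technical repeats of the same RNA. The deviations of same-numbered libraries correlated at 0.079, 0.005 and 0.071, and those of differently numbered libraries at -0.104 to 0.039. These values do not settle whether a number marks a pair. The labels do not say that it does, so numbers were not taken as pairs. Alternatives were scaling by library size, RLE or upper quartile, keeping all genes, keeping those at 1 CPM in 3 libraries, DESeq2 1.42.0, limma-voom (limma 3.58.1), a replicate block, an adjusted p of 0.01 and leaving out each library. Figures used Python 3.11.15 and Matplotlib 3.10.9. SNHG14 fits the symbol pattern but is not among the 26485 symbols measured, so it was not analysed here.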

Additional observations from a re-analysis of the deposited data

How the results depend on the processing

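MIR99AHG and MIR600HG passed in all 14 alternatives that gave them a fold change, with log2 fold changes of -0.45 to -0.39 and -0.55 to -0.44. Members called numbered 5 of 33. DESeq2 gave 2 of 31, an adjusted p under 0.01 gave 2 of 33, and leaving out 1 library gave 3 to 6 of 34. The calls over all genes, given below, were fewer too in each of these settings. SNHG genes and GAS5 called numbered 2, against 4 with library-size scaling (GAS5 and SNHG17 added), 0 by DESeq2, 0 at an adjusted p under 0.01 and 0 to 3 with 1 library left out. MIRHG genes called ranged from 2 to 4. Over all genes 4545 of 13632 passed, 2743 of 13400 by DESeq2 and 2943 of 13632 at an adjusted p under 0.01. With 1 library left out, 3608 to 4297 of 13714 to 13839 genes passed, and with library-size scaling 4693 of 13632. Leaving out 1 library gave 0 to 1 called snoRNA core proteins (0 as reported), 0 to 2 decay factors (1), 3 to 7 protein-coding hosts (6), 2 to 5 other noncoding hosts (4) and 1 to 3 SNORD116 rows (4). DESeq2 gave 0 decay factors, 0 other noncoding hosts and 0 SNORD116 rows, and library-size scaling gave 1 assembly factor (0 as reported) and 11 protein-coding hosts. With the replicate block, 2 decay factors, 5248 of 13632 genes and 7 of 33 members passed, SNHG17 and MIR4458HG added. The 3 same-number correlations were all under 0.1.

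The sign of the log2 fold change did not hold for these members that did not pass, nor for NOP56, and SNHG12 reached 0 without turning. Leaving out 1 library gave log2 fold changes of -0.0197 to 0.22 for SNHG11, -0.11 to 0.36 for SNHG21, -0.82 to 0.0059 for MIR210HG, -0.0227 to 0.18 for SNHG18, -0.14 to 0.0228 for SNHG19 and -0.0807 to 0.35 for MIR4500HG. They ran from -0.13 to 0.00 for SNHG12, -0.0475 to 0.097 for SNHG10, -0.15 to 0.15 for MIR181A2HG, -0.14 to 0.40 for MIR503HG, -0.0849 to 0.0722 for SNHG20, -0.0256 to 0.025 for MIR325HG and -0.0458 to 0.0193 for NOP56. MIR325HG was at 0.0074 with upper-quartile and 0.0176 with library-size scaling, and NOP56 at 0.0024 with library-size scaling. The cause was not tested. Members under 10 CPM had an SE of 0.135 or more, and depth was not varied. SNHG19, SNHG11, SNHG10 and NOP56 had means above 10 CPM, with SEs of 0.089, 0.106, 0.122 and 0.045. Their log2 fold changes as reported were -0.05, 0.10, 0.03 and -0.02.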

Other observations

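The SNORD116 rows, copies of a box C/D snoRNA encoded in tandem in an imprinted region, lie outside the rule and were singled out after their values were seen. Of 30 rows 25 were tested, and all 25 had a negative log2 fold change, with a median of -0.41 and a range of -0.93 to -0.05. Of all 13632 tested genes 6758 were negative. The small RNA rows inside the hosts leaned the same way, with 8 of 11 negative and a median of -0.26. By edgeR 4 passed (16%), all lower, where 33.3% of all tested genes passed and 18.2% of those under 10 CPM, the level of these rows. At an unadjusted p under 0.05 there were 12 (48%), against 42.9% of all tested genes. SNORD116-20 went from 5.19 ± 0.507 CPM in control to 3.31 ± 0.670 in knockdown (SD, n = 3, edgeR adjusted p = 0.0103), and SNORD116-19 from 6.67 ± 0.798 to 4.90 ± 0.411 CPM (edgeR adjusted p = 0.0316). None passed by DESeq2 (0 of 25), which called 2743 of 13400 genes. By edgeR 1 passed without control replicate 1, knockdown replicate 1 or knockdown replicate 2, and 2 without control replicate 3. In these 4 settings 3608 to 3956 genes passed of 13714 to 13839 tested. The copies are near-identical and come from one transcription unit, so reads could be split among them and they are not independent.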
